A study of Mus musculus with 4 samples.

Results

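The 9 genes described here are *Kcnq1*, *Phlda2*, *Slc22a18*, *Nap1l4*, *Tssc4*, *Cd81*, *Tspan32*, *Ascl2* and *Osbpl5*. They lie on distal mouse chromosome 7 on both sides of the noncoding RNA gene *Kcnq1ot1* and were taken by name, as genes of this stretch other than *Cdkn1c* and *Th*, from the 55602 genes of the bulk table. RNA-seq was made from JB1 cells, male hybrid embryonic stem cells (ESCs) from a cross of JF1 (mother) with C57BL/6 (B6, father), after 12 days of a corticogenesis protocol in defined medium with 1 µM cyclopamine, an inhibitor of Sonic hedgehog signalling, from day 2 to day 10. The wild-type group was JB1 itself (2 libraries) and the *Zfp57*-/- group was a JB1-derived line in which *Zfp57* was inactivated before differentiation (2 libraries). A single mutant line was used, so line and genotype cannot be told apart. The libraries are biological duplicates, and p-values measure the spread between them. Pairs of values are given for replicate 1 and then replicate 2, with wild-type before *Zfp57*-/-.

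In genomic imprinting, a gene is transcribed mainly from the copy inherited from 1 parent. In this domain the imprinting control region overlaps the promoter of *Kcnq1ot1* inside *Kcnq1* and is methylated on the maternal copy. *Kcnq1ot1* is then transcribed from the unmethylated paternal copy and is known to silence genes in cis on that copy. ZFP57 is a zinc-finger protein that binds methylated control regions and maintains their methylation. *Kcnq1*, *Phlda2* and *Slc22a18* are known as maternally expressed genes of the domain, and several of the outer genes, among them *Ascl2*, *Cd81*, *Tssc4* and *Osbpl5*, have been described as maternally biased mainly in placenta. The comparison asks how RNA level and allelic balance of these genes differed between wild-type and *Zfp57*-/- cells.

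The promoter stretches of *Phlda2* and *Ascl2*, which had the largest bulk differences of the tested neighbours, are shown beside that of *Slc22a18*, a gene near *Phlda2* with few counts in all libraries. The sequences are from RefSeq (GRCm38.p6), run 5′ to 3′ on the gene's strand and stop where the annotated untranslated part of the protein-coding transcripts begins. Capitals mark CpG dinucleotides, the sites of DNA methylation. They are chr7:143502542-143502774 on the minus strand for *Phlda2*, chr7:142969265-142969514 on the minus strand for *Ascl2* and chr7:143473539-143473735 on the plus strand for *Slc22a18*.
Phlda2: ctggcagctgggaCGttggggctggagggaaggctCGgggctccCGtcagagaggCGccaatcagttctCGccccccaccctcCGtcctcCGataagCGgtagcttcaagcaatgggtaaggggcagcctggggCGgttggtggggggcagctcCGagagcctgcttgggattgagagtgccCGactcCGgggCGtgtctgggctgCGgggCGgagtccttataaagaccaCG
Ascl2: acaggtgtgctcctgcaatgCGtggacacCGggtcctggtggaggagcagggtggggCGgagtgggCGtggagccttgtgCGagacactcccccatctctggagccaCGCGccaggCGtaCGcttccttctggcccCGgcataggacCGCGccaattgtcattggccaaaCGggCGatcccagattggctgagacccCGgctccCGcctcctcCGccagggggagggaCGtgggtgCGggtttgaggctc
Slc22a18: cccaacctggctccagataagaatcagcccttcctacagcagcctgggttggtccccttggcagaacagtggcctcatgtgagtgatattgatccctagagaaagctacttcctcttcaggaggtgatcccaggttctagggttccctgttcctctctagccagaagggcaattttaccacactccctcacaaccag
The *Phlda2* stretch lies upstream of the main protein-coding transcript and inside an exon of a longer noncoding one. It held 16 CpGs in 233 bases, the *Ascl2* stretch 19 in 250 and the *Slc22a18* stretch 0 in 197.

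Over whole windows of 300 bases (250 before and 50 after a start site), 7 of the 9 genes had an entry, and *Osbpl5* had 3 start sites. *Phlda2* held 26 CpGs, a number reached by 16.9% of the 32851 mouse windows. *Ascl2*, *Cd81* and *Tssc4* held 23 each, which 21.5% of windows reached. The *Osbpl5* windows held 16, 1 and 21. *Slc22a18* and *Tspan32* held 2 each, and 23.3% of all windows held 2 or fewer. The 2 spellings of the ZFP57 core motif were searched on both strands. TGCCGC occurred in 1 of the *Osbpl5* windows and in no window of the other genes, against 11.6% of all windows. GGCCGC occurred 3 times, overlaps counted, in the *Phlda2* window, outside the printed stretch, and in no other of these windows. Of all windows, 19.99% held at least 1 such match and 3.24% held at least 3. These matches describe letters in the windows only.

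The libraries held 7663520 to 10337082 bulk counts, of which 36.1 to 37.0% could be assigned to an allele. *Zfp57* had 392 and 249 wild-type counts against 158 and 144 *Zfp57*-/- counts. By allele, it had 136 and 99 JF1 reads in wild-type libraries and 0 in both *Zfp57*-/- libraries, where 0 of 158 allelic reads allows a JF1 share of up to 0.0190. Its B6 reads were 81 and 49 against 82 and 76. Which part of the gene the mutation changes is not given in the sources used here. Over 11736 well-covered genes, the SD of the log2 difference between replicates was 0.51 for wild-type against 0.24 for *Zfp57*-/- cells, so the wild-type libraries were the less alike. The median allelic ratio of chromosome 7, defined as JF1/(JF1 + B6), was 0.515 for wild-type against 0.487 for *Zfp57*-/- cells, and that of chromosome 1 was 0.490 against 0.620.

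The cell type markers differed between the groups along with the values given below. Of 11 markers of neural precursors and neurons, 8 were lower and 0 higher in *Zfp57*-/- cells (edgeR, adjusted p under 0.05). Their summed level was 1889 and 2249 CPM (counts scaled to library size) against 469 and 475 CPM. Much of the wild-type sum came from neuronal genes, among them *Map2* at 686 and 633 against 40.4 and 29.7 CPM. *Tubb3*, also neuronal, was at 276 and 580 against 58.5 and 52.0 CPM. The precursor gene *Nes*, which encodes Nestin, was at 356 and 366 against 190 and 195 CPM. Of 9 pluripotency markers, 8 were higher and 0 lower, with sums of 66.1 and 142 against 1401 and 1268 CPM. *Pou5f1* had 1 and 6 wild-type counts against 2747 and 2286 *Zfp57*-/- counts, and *Tdgf1* had 0 and 2 against 2301 in each library. Most of the neural sum of the *Zfp57*-/- cells came from *Nes* and from *Sox2*, which is also a pluripotency factor and was at 104 and 119 against 144 and 168 CPM (edgeR adjusted p = 0.0881). *Dcx*, a gene of young neurons, fell from 222 and 254 to 2.58 and 2.96 CPM, and *Hes5*, a Notch target of neural precursors, from 317 and 459 to 12 and 10 counts. The wild-type cells thus carried the markers of their label, while the *Zfp57*-/- cells had pluripotency markers and low levels of most neural ones.

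In the bulk comparison, 7 of the 9 neighbours had more than 8 counts over the 4 libraries and were tested. *Phlda2* was higher in *Zfp57*-/- cells, 0 were lower and 6 did not pass an adjusted p of 0.05. Of all 19995 genes tested, 27.6% passed, 13% higher and 14.6% lower. On the log2 scale, the median of *Zfp57*-/- over wild-type was -0.06 over the 7 genes and -0.01 over all genes.

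*Phlda2* (ENSMUSG00000010760.5, chr7:143501545-143503150, minus strand) encodes a small pleckstrin-homology domain protein that restrains placental growth. It had 7 and 6 wild-type counts against 41 and 44 *Zfp57*-/- counts, or 0.867 and 0.573 against 4.40 and 4.50 CPM. Both *Zfp57*-/- libraries lay above both wild-type libraries. The log2 fold change was 2.63 (standard error 0.58, edgeR adjusted p = 0.00849). The ratio of the summed counts, scaled for library size, was 6.35 with an exact 95% interval of 3.52 to 12.4 that covers counting error only. The call was lost without *Zfp57*-/- replicate 1 (log2 2.64, edgeR adjusted p = 0.0596) and without *Zfp57*-/- replicate 2 (2.61, 0.0649), the highest adjusted p of its alternatives, of which the lowest was 4.63e-05. In such bulk samples, a change in the share of cells of a type and a change in RNA per cell cannot be told apart.

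*Ascl2* (ENSMUSG00000009248.6, chr7:142966829-142969264, minus strand) encodes a basic helix-loop-helix transcription factor required in the trophoblast. It had 3 and 6 wild-type counts against 19 and 21 *Zfp57*-/- counts, or 0.371 and 0.573 against 2.04 and 2.15 CPM. The groups did not overlap, and the ratio of summed counts was 4.32 (exact 95% interval 2.06 to 10.1). Its log2 difference, 2.10 with a standard error of 0.71, just missed the threshold (edgeR adjusted p = 0.0528). It passed with a stricter filter on low counts (2.08, edgeR adjusted p = 0.0391), with a replicate block (2.11, 0.0305) and without wild-type replicate 2 (2.45, 0.0248), and the adjusted p was 0.133 with DESeq2 and 0.0248 to 0.247 over all its alternatives.

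Markers of other lineages differed as well, and their part in the *Phlda2* and *Ascl2* values was not tested. Of 9 trophoblast markers, 8 were tested, of which 3 were higher and 1 lower in *Zfp57*-/- cells, with sums of 24.3 and 47.8 against 82.0 and 85.2 CPM. Most of the *Zfp57*-/- sum came from *Eomes* and *Tfap2c*. *Eomes* was at 1.61 and 0.668 against 35.3 and 44.3 CPM and *Tfap2c* at 5.20 and 12.8 against 30.9 and 24.4 CPM. The third higher marker, *Gcm1*, had 0 counts in both wild-type libraries and 5 and 10 *Zfp57*-/- counts (edgeR adjusted p = 0.0330). The lower one, *Tpbpa*, had 91 and 129 against 51 and 36 counts. *Cdx2* did not pass, at 3.34 and 19.6 against 5.69 and 6.85 CPM (edgeR adjusted p = 0.324). *Elf5* had 0 to 2 counts in each library and the giant cell gene *Prl3d1* was at 0 counts in both *Zfp57*-/- libraries and had 0 and 12 counts in wild-type. Of 12 endoderm markers, 3 were higher and 1 lower, with sums of 2058 and 3089 against 3331 and 4664 CPM. *Lamb1*, which made up most of these sums, did not pass, at 1595 and 2376 against 2510.07 and 3504 CPM (edgeR adjusted p = 0.110). *Dab2*, 1 of the 3 higher, was at 93.4 and 175 against 256 and 350 CPM. The endoderm factors *Gata4*, *Gata6*, *Foxa2* and *Sox17* did not pass (edgeR adjusted p = 0.189, 0.468, 0.146 and 0.182). Of 7 mesoderm and muscle markers, 6 were tested and 4 were higher, with sums of 121 and 159 against 647 and 626 CPM. *Acta2* was at 38.5 and 111 against 447 and 432 CPM and *T* at 14.5 and 32.9 against 106 and 124 CPM, while *Mesp1* had 0, 0, 0 and 1 counts. Of 8 blood and endothelium markers, 4 were tested, 2 were higher and 1 lower, with sums of 77.5 and 77.9 against 63.7 and 67.5 CPM. *Cdh5* did not pass, at 20.2 and 60.6 against 41.8 and 45.4 CPM (edgeR adjusted p = 0.876). *Kdr*, the lower one, was at 51.3 and 16.3 against 8.69 and 12.4 CPM.

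**Figure D1:**
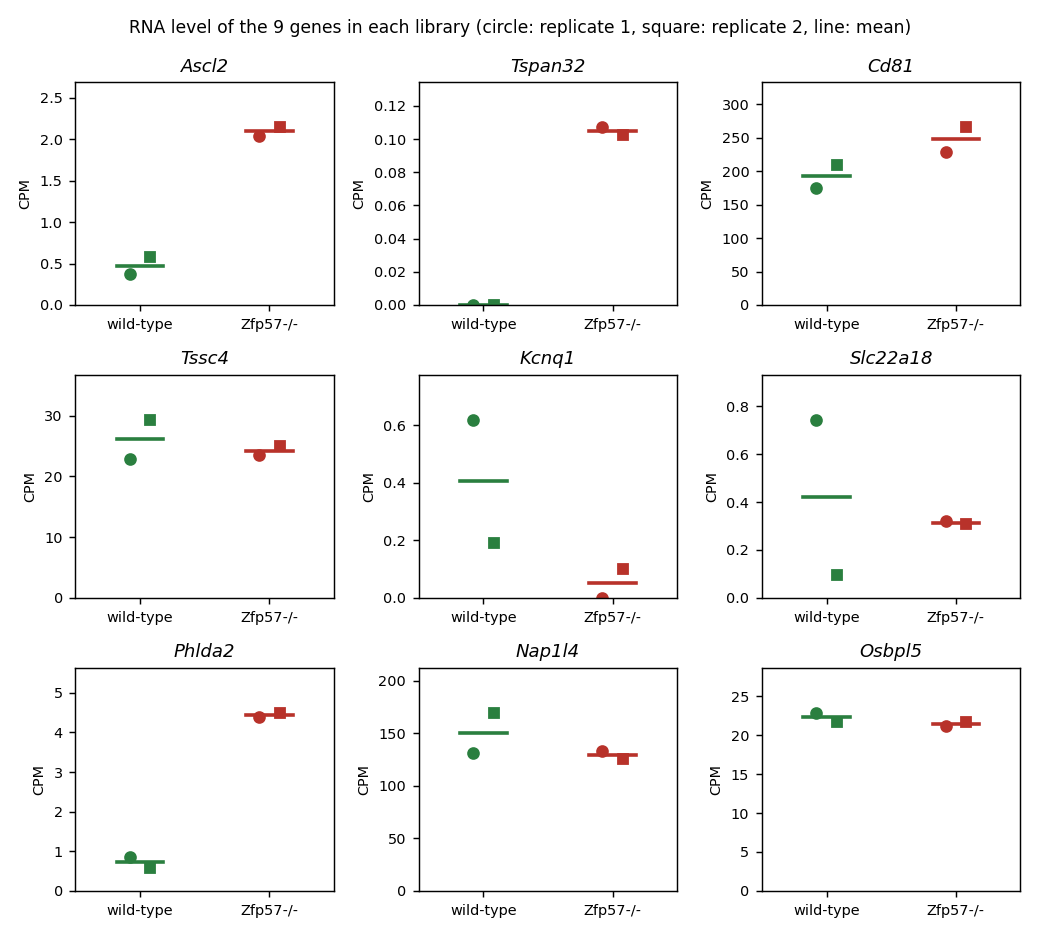
CPM, counts scaled to library size, of the 9 genes, 1 panel per gene in chromosomal order, with the 2 wild-type and 2 *Zfp57*-/- libraries as points and the group means as lines. On average, *Phlda2* rose from 0.72 to 4.45 CPM and *Ascl2*, which did not pass the test, was at 0.472 against 2.09 CPM, while *Osbpl5* was at 22.3 and 21.5 CPM and *Tssc4* at 26.1 and 24.2 CPM.

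*Cd81* (ENSMUSG00000037706.17, chr7:143052739-143067934, plus strand) encodes a tetraspanin, a membrane organizer of many cell types. It had 1408 and 2196 wild-type counts against 2134 and 2603 *Zfp57*-/- counts, or 174 and 210 against 229 and 266 CPM. The groups did not overlap, but the log2 difference, 0.37 with a standard error of 0.20, did not pass the threshold (edgeR adjusted p = 0.197). Without wild-type replicate 2 it did (0.50, edgeR adjusted p = 0.000585), and its alternatives ranged up to 0.746. *Tssc4* (ENSMUSG00000045752.13, chr7:143069249-143071093, plus strand), which encodes a factor of spliceosome assembly, was at 22.9 and 29.3 against 23.5 and 24.9 CPM. The groups overlapped, and the log2 difference was -0.11 (standard error 0.23, edgeR adjusted p = 0.754), or 0.08 without wild-type replicate 2.

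*Nap1l4* (ENSMUSG00000059119.9, chr7:143513579-143549106, minus strand), a histone chaperone gene, had 1057 and 1775 wild-type counts against 1241 and 1229 *Zfp57*-/- counts, or 131 and 169 against 133 and 126 CPM. The wild-type replicates differed more from each other than the group means did. The log2 fold change was -0.22 (standard error 0.20, edgeR adjusted p = 0.466), and it was -0.42 and past the threshold without wild-type replicate 1 (edgeR adjusted p = 0.00538, with alternatives up to 0.921). A small gene on the same strand, *Gm23297*, overlaps it. *Osbpl5* (ENSMUSG00000037606.18, chr7:143688762-143756985, minus strand) encodes an oxysterol-binding-related protein that exchanges lipids between the endoplasmic reticulum and the plasma membrane. It was at 22.9 and 21.8 against 21.3 and 21.7 CPM. The log2 fold change was -0.06 (standard error 0.22, edgeR adjusted p = 0.874).

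The other 3 genes were at the limit of detection. *Slc22a18* (ENSMUSG00000000154.16, chr7:143473736-143499334, plus strand), a transporter-like gene, had 6 and 1 counts against 3 in each *Zfp57*-/- library (log2 fold change -0.33, standard error 1.17, edgeR adjusted p = 0.864). The ratio of summed counts was 0.833, with an exact 95% interval of 0.231 to 2.89, so a difference was not detectable at this depth. *Kcnq1* (ENSMUSG00000009545.14, chr7:143106362-143427042, plus strand), the voltage-gated potassium channel gene in which *Kcnq1ot1* lies on the opposite strand, had 5 and 2 wild-type counts against 0 and 1 *Zfp57*-/- counts. With 8 counts in all it was not tested, and the ratio was 0.139 (exact 95% interval 0.00308 to 1.08). *Tspan32* (ENSMUSG00000000244.17, chr7:143005046-143019644, plus strand), a tetraspanin gene known from blood cells, had 0 counts in both wild-type libraries and 1 in each *Zfp57*-/- library. A count of 3 per group is the limit that 0 allows, so no fold is given.

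Per kilobase of exon, the genes spanned a wide range of levels (RPKM, mean ± SD, n = 2). *Cd81* was at 66.7 ± 8.67 in wild-type and 86.0 ± 9.09 in *Zfp57*-/- cells, and *Nap1l4* followed at 48.5 ± 8.81 and 41.8 ± 1.73. *Tssc4* was at 14.2 ± 2.45 and 13.1 ± 0.549, and *Osbpl5* at 4.54 ± 0.164 and 4.37 ± 0.06. *Phlda2* was at 0.642 ± 0.185 in wild-type cells and, at 3.97 ± 0.0609, below but near *Osbpl5* in *Zfp57*-/- cells. *Ascl2* was at 0.291 ± 0.0877 and 1.29 ± 0.0467, and *Slc22a18* at 0.247 ± 0.269 and 0.185 ± 0.0064. *Kcnq1* was at 0.099 ± 0.074 and 0.0125 ± 0.0177, and *Tspan32* at 0 and 0.0168 ± 0.000581. In wild-type cells the replicates of *Slc22a18* overlapped in range with those of *Ascl2* above it and of *Kcnq1* below it.

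The genes around them on the chromosome gave the reference for these levels. *Kcnq1ot1* had 6221 and 2381 wild-type counts against 6307 and 4893 *Zfp57*-/- counts (log2 fold change 0.24, standard error 0.49, edgeR adjusted p = 0.756), and its wild-type replicates lay on both sides of the *Zfp57*-/- values in CPM, at 770 and 227 against 677 and 500. *Cdkn1c*, a cell cycle inhibitor gene 164.5 kb from the *Kcnq1ot1* start site, fell from 1524 and 2091 to 48 and 57 counts (log2 fold change -5.14, edgeR adjusted p = 1.71e-06). The *Phlda2* start site lies 206.6 kb from that of *Kcnq1ot1*, on the same side. Of a list of 17 other genes of this stretch, 14 were tested, 1 was higher and 5 were lower. The 5 were *Cdkn1c*, *Th* (-4.94, 0.000805), *Ano1* (-3.07, 9.39e-05), *Igf2* (-2.79, 1.79e-05) and *Shank2* (-1.88, 0.0219), given with log2 fold change and edgeR adjusted p. The higher one was *H19* (1.28, 0.00304), which with *Igf2* belongs to the adjacent imprinted domain. The median log2 fold change of the 14 was -0.93. Within 1000 kb of *Kcnq1ot1*, 30 of 82 genes were tested, 5 were higher and 5 were lower, or 33.3% of those tested against 27.6% of all genes. The median log2 fold change of these 30 was -0.04, so the median of the 14 listed genes does not describe the stretch as a whole.

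**Figure D2:**
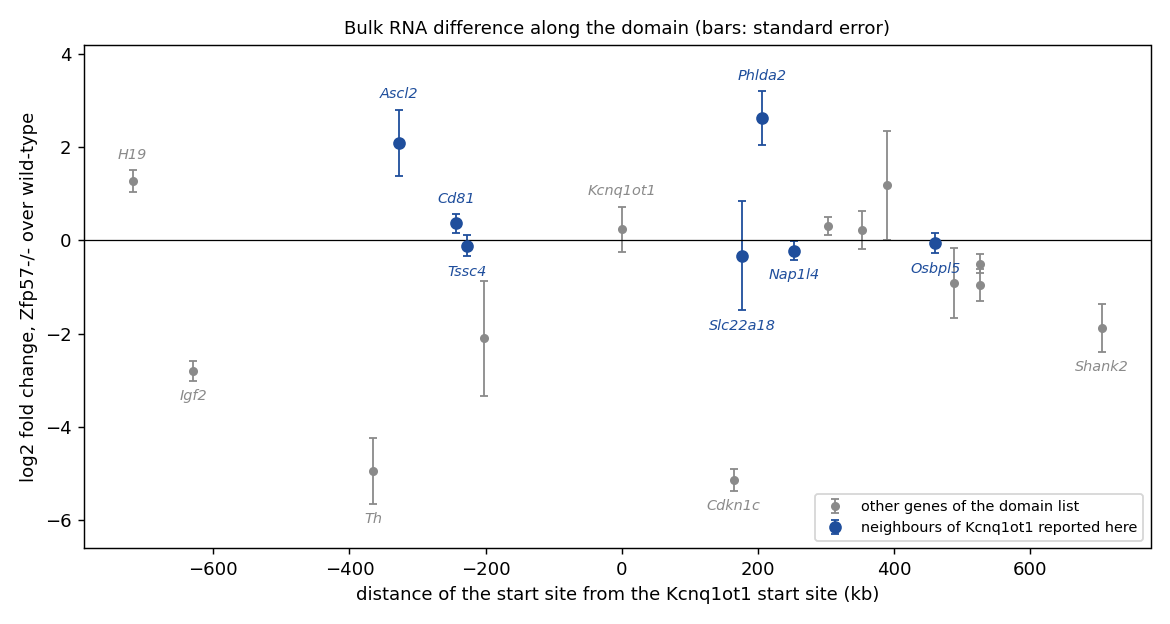
Log2 fold change of bulk RNA, *Zfp57*-/- over wild-type, with standard error (y axis) against the distance of each gene's start site from that of *Kcnq1ot1* in kb (x axis), for the 7 tested neighbours (blue) and the tested genes of the list of the stretch that lie within 1000 kb (grey). *Phlda2* at 2.63 and *Ascl2* at 2.10 lie above 0 on opposite sides of *Kcnq1ot1*, while *Cdkn1c* and *Th* lie near -5.

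Relatives of these genes outside this stretch were counted in the same fit. Of 32 genes of the same protein families, 26 were tested, 3 were higher and 7 were lower, where 27.6% of all genes passed in either direction. The median of the 26 was -0.14 on the log2 scale. *Kcnq3*, a potassium channel gene, fell from 83 and 104 to 29 and 20 counts (log2 fold change -1.97, edgeR adjusted p = 0.00509). *Phlda3*, a relative of *Phlda2*, rose from 132 and 342 to 1164 and 1319 counts (2.40, 0.000323).

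Allelic balance could be tested for 4 of the 9 neighbours, those that reached 10 normalized allelic reads in each wild-type library. The cells come from 1 direction of the cross, so parental origin and strain cannot be told apart. In wild-type cells 0 of these 4 passed the test of a difference between the JF1 and B6 alleles (edgeR with a term for each library), against 24.8% of the 10977 genes tested. At an unadjusted p under 0.05 edgeR gave 1, *Nap1l4*, and the share of all genes at that level was not taken. At an adjusted p under 0.05, DESeq2 gave 0 and a test of proportions on pooled reads gave 1, *Nap1l4*. In *Zfp57*-/- cells 1 of 4 passed, *Osbpl5*, with B6 above JF1, against 20.6% of all genes in either direction and 9.74% in this one.

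*Osbpl5* had 38 JF1 and 38 B6 reads in wild-type replicate 1 and 56 and 50 in replicate 2. In *Zfp57*-/- cells it had 29 and 66 reads in replicate 1 and 42 and 67 in replicate 2. The allelic ratio was thus 0.5 and 0.528 in wild-type against 0.305 and 0.385 in *Zfp57*-/- cells, and the groups did not overlap. The JF1 over B6 log2 difference was 0.03 (standard error 0.26, edgeR adjusted p = 0.954) in wild-type and -0.85 (0.26, 0.0111) in *Zfp57*-/- cells. The latter was lost without *Zfp57*-/- replicate 1 (-0.62, edgeR adjusted p = 0.21) and with DESeq2 (-0.86, 0.398), and its alternatives ranged from 0.00558 to 0.398. The difference between genotypes itself, -0.88 (standard error 0.37), did not pass (edgeR adjusted p = 0.114), while 14.5% of all genes did, 8.86% in this direction. Without *Zfp57*-/- replicate 2 it was -1.25 (edgeR adjusted p = 0.0246, with alternatives up to 0.858). Scaled to the bulk library, the JF1 allele differed by -0.44 on the log2 scale (standard error 0.28, edgeR adjusted p = 0.273) and the B6 allele by 0.55 (0.27, 0.145), where 29.3% and 32.6% of all genes passed. At an unadjusted p under 0.05, edgeR gave *Osbpl5* alone of the 4 neighbours between genotypes and 0 of 4 for either allele by itself. At an adjusted p under 0.05, DESeq2 gave 0 calls in all 3 comparisons. The 15 nearest genes outside the lists, spread over 3715 kb, had a median ratio of 0.559 against 0.485. Listed genes near *Osbpl5* were left out of these 15. Of them, *Cars* was at 0.476 against 0.523, *Dhcr7* at 0.545 against 0.562 and *Nadsyn1* at 0.537 against 0.464. With fewer allelic reads, *Tnfrsf22* was at 0.250 against 0.417 (21 and 33 reads) and *Mrgpre* at 0.262 against 0.188 (20 and 11). *Shank2*, farther out, was at 0.476 against 0.929 (55 and 17 reads). Its genotype difference was 3.95 (standard error 1.26, edgeR adjusted p = 0.0201). The part of the difference over the wider region in the *Osbpl5* values was not tested. Centred on the chromosome 7 median, *Osbpl5* was at 0.495 and 0.36.

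*Nap1l4* had allelic ratios of 0.482 and 0.374 in wild-type against 0.468 and 0.521 in *Zfp57*-/- cells, over 326 and 308 allelic reads. The wild-type JF1 over B6 difference was -0.51 (standard error 0.21, edgeR adjusted p = 0.0618). It passed without wild-type replicate 1 (-0.79, edgeR adjusted p = 0.0488) and in the test of proportions (-0.46, 0.0173), and its alternatives ranged up to 0.954. The genotype difference was 0.54 (standard error 0.29, edgeR adjusted p = 0.266). *Tssc4* had ratios of 0.615 and 0.516 in wild-type against 0.658 and 0.373 in *Zfp57*-/- cells, so its *Zfp57*-/- replicates lay on both sides of the wild-type values. *Cd81* had 0.571 and 0.5 in each genotype, but only 33 and 43 allelic reads, since 0.911% of its counts could be assigned to an allele. The genotype difference was -0.21 (standard error 0.54) for *Tssc4* and 0.07 (0.86) for *Cd81*, so that shifts of the size of these errors were not detectable.

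*Phlda2* and *Ascl2* had too few wild-type allelic reads for a test, and their values are given as counts. *Phlda2* had 1 JF1 read in wild-type replicate 1 and 0 reads of either allele in replicate 2. In *Zfp57*-/- cells it had 5 JF1 and 6 B6 reads in replicate 1 and 7 and 7 in replicate 2. Both alleles were therefore present in each *Zfp57*-/- library, at a pooled ratio of 0.480 (95% Wilson interval 0.3003 to 0.665). With a single read, the wild-type balance cannot be stated, nor whether the balance differed between genotypes. *Ascl2* had 0 JF1 and 1 B6 reads and 1 and 2 reads in the wild-type replicates, and 3 and 4 and then 4 and 6 reads in the *Zfp57*-/- replicates. Its pooled ratio in *Zfp57*-/- cells was 0.412 (95% Wilson interval 0.216 to 0.640).

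The remaining genes gave a handful of allelic reads each. *Kcnq1* had 2 and 1 reads in wild-type cells, all JF1 (Wilson interval of the pooled ratio 0.439 to 1), and 0 in *Zfp57*-/- cells. *Slc22a18* had 3 JF1 reads in wild-type replicate 1 and 0 in replicate 2, and 3 JF1 and then 1 B6 reads in the *Zfp57*-/- replicates. *Tspan32* had 1 B6 read in each *Zfp57*-/- library. For these 3 genes neither maternal nor biallelic expression could be told from the reads.

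The noncoding RNA of the domain and its best known target gave the reference for these ratios. *Kcnq1ot1* had allelic ratios of 0.0148 and 0.0139 in wild-type against 0.459 and 0.482 in *Zfp57*-/- cells, over 3432 and 4328 allelic reads. *Cdkn1c* had 0.991 and 0.999 in wild-type against 0.800 and 0.579 in *Zfp57*-/- cells, where it rested on 10 and 19 reads. The genotype differences were 6.02 (standard error 0.15) and -6.59 (0.90) on the log2 scale, against -0.88 to 0.54 for the 4 neighbours. The study's intervals for imprinted expression, with limits at 0.33 and 0.67, held neither group mean of *Nap1l4*, *Tssc4*, *Cd81* or *Osbpl5*. The *Zfp57*-/- mean of *Osbpl5*, 0.345, was the nearest to them.

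**Figure D3:**
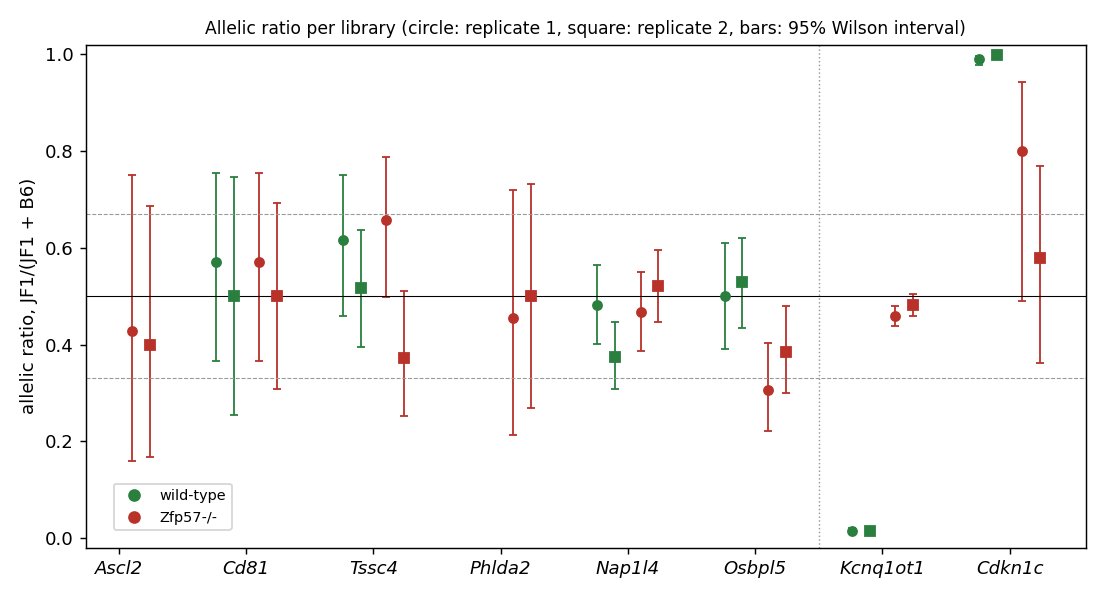
Allelic ratio, JF1/(JF1 + B6), of each library with at least 7 allelic reads (y axis) for 6 neighbours and, right of the dotted line, *Kcnq1ot1* and *Cdkn1c*, with 95% Wilson intervals for counting error. Solid and dashed lines mark 0.5 and the 0.33 and 0.67 limits. *Osbpl5* lies at 0.305 and 0.385 in *Zfp57*-/- cells, and *Phlda2* and *Ascl2* are shown in *Zfp57*-/- cells only, between 0.4 and 0.5.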

How the data were processed

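RNA-seq of 2 wild-type and 2 *Zfp57*-/- libraries of day 12 JB1 cells (stranded total RNA, ribosomal RNA removed, paired-end) was analysed from the tables deposited by the authors. In both tables the authors deposited raw fragment counts per gene, with no normalization. After trimming (Trimmomatic 0.36), they used STAR 2.5.4a on GRCm38, kept unique alignments and counted fragments per GENCODE vM20 gene on the matching strand with featureCounts (Subread 1.6.0), so that overlapping genes on opposite strands, such as *Kcnq1* and *Kcnq1ot1*, were counted apart. For the allele table they aligned reads to a genome masked at strain SNPs and split them into JF1 and B6 reads with SNPsplit. Other per-gene columns deposited with the tables hold annotation, and the summed exon length was used for RPKM.

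Groups follow the sample labels. Genes with more than 8 counts over the 4 libraries were compared with edgeR 4.0.16 in R 4.3.3 (robust quasi-likelihood test, TMM, Benjamini-Hochberg over all 19995 genes, threshold 0.05). CPM and RPKM use TMM-scaled library sizes. For allelic balance, the 10977 autosomal genes that reached 10 normalized allelic reads in each wild-type library entered an edgeR fit of all 8 allele columns, with 1 coefficient for each library and 1 allele coefficient for each genotype. A second fit with bulk library sizes compared each allele between genotypes. The allelic ratio needs SNPs, and intervals and floors cover counting error only, since the reads carry no molecular identifiers. Symbols were matched by gene ID for 98.4% of bulk genes. Promoter sequences are RefSeq's (GRCm38.p6), and annotated untranslated parts are those of GENCODE vM21. The bulk test, the genotype-by-allele test and the JF1 allele test between genotypes were run on simulated counts first. The tests between alleles within a genotype, the B6 allele test and the test of proportions were not.

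The genes and lists were chosen with earlier results of these data known. All 9 genes are named, with *Kcnq1ot1*, *Cdkn1c* and *Zfp57*, listed genes of the stretch past the threshold, the 4 family genes with the smallest adjusted p (of which 2 are not reported here) and the 2 markers of each list with the highest mean count. *Elf5*, *Prl3d1* and *Mesp1*, with counts at or near 0, were named after their values were seen. So were *Gcm1*, *Tpbpa*, *Cdx2*, *Gata4*, *Gata6*, *Foxa2*, *Sox17*, *Tubb3*, *Sox2*, *Dcx*, *Hes5*, *Cars*, *Dhcr7*, *Nadsyn1*, *Tnfrsf22* and *Mrgpre*. Genes with a profile like that of a changed neighbour were to be named for a mean of at least 50 counts, which *Phlda2* did not reach (24.5). Alternatives were DESeq2 1.42.0, other scalings, filters, thresholds and read minimums, a gene length offset, a replicate block, a test of proportions, pooled and centred ratios, and each library left out in turn. Promoters of *Kcnq1* and *Nap1l4* and protein sequences were not used here.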

Additional observations from a re-analysis of the deposited data

How the results depend on the processing

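The number of neighbours past the bulk threshold, 1, became 2 with a stricter filter on low counts and 2 with a replicate block, and lay between 0 and 3 with each library left out (0 without either *Zfp57*-/- library). Same-numbered libraries share only a number in the labels, and with 2 pairs it was not taken to pair them, though their deviations correlated at 0.157. The block moved the calls over all genes from 5522 to 6984. The family list gave 5 calls instead of 10 at an adjusted p of 0.01 and 5 to 14 with a library left out. In *Zfp57*-/- cells, the neighbours with unequal alleles went from 1 to 0 with DESeq2 and at an adjusted p of 0.01, and lay between 0 and 1 with a library left out. In wild-type cells the number was 1 with the test of proportions and 0 to 1 with a library left out, and 0 to 1 for the difference between genotypes. Where 1 library remained in a genotype, it was assumed to vary like the other group.

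Signs that reversed belonged to differences that did not pass the threshold. With a library left out, the bulk log2 fold change of *Tssc4* lay between -0.30 and 0.0779. The JF1 over B6 difference lay between -0.14 and 0.17 for *Nap1l4* and between -0.69 and 0.99 for *Tssc4* in *Zfp57*-/- cells, and between -0.0471 and 0.44 for *Cd81* in wild-type cells. The genotype-by-allele difference lay between -1.03 and 0.64 for *Tssc4* and between -0.22 and 0.31 for *Cd81*. On the JF1 allele alone, the log2 fold change lay between -0.30 and 1.06 for *Cd81* and between -0.10 and 0.27 for *Nap1l4*, and on the B6 allele between -0.0898 and 0.86 for *Cd81* and between -0.76 and 0.46 for *Tssc4*. With bulk library sizes and no scaling of the alleles, *Nap1l4* was at -0.0239 in *Zfp57*-/- cells and *Cd81* at -0.0472 between genotypes. That scaling moved the genotype-by-allele median of all genes from 0.06 to -0.06, and *Osbpl5* was at -1.0 (edgeR adjusted p = 0.0588). Library totals alone moved the bulk median from -0.01 to -0.12, with *Phlda2* at 2.51. The cause of these changes was not tested.

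Over all genes, the 5522 bulk calls became 2901 at an adjusted p of 0.01, 9947 without wild-type replicate 2, and 2831 and 2985 without *Zfp57*-/- replicate 1 and 2. DESeq2 gave 1158 instead of 2720 calls between alleles in wild-type cells, 731 instead of 2264 in *Zfp57*-/- cells and 819 instead of 1592 between genotypes. Without wild-type replicate 1 and 2 the wild-type calls were 1679 and 1388. The calls on the JF1 allele went from 3221 to 1777 and on the B6 allele from 3577 to 2196 at an adjusted p of 0.01, to 885 and 1542 without *Zfp57*-/- replicate 1, and to 947 and 1550 without replicate 2. Depth limits *Kcnq1*, *Slc22a18* and *Tspan32* in both tables and *Phlda2*, *Ascl2* and *Cd81* in the allele table.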
